A study of Mus musculus with 4 samples.

Results

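The filaggrin family and the enzymes that process filaggrin were followed in newborn mouse epidermis as 8 genes: Flg, Flg2, Hrnr, Rptn, Casp14, Asprv1, Blmh and Padi1. They were taken by symbol from the deposited transcript table, and the rows of each symbol were summed. They are 8 of 45803 symbols in the table, and all 8 were among the 13817 genes that passed the filter on low values. RNA was sequenced from epidermal keratinocytes, the main cells of the outer skin layer, at postnatal day 0. The 2 control libraries had the genotype K14Cre,Mettl14F/+ and the 2 conditional knockout (cKO) libraries K14Cre,Mettl14F/F, with no treatment. All 4 libraries thus carried Cre recombinase under the keratin 14 promoter, which acts in basal keratinocytes, and at least 1 floxed allele of Mettl14, which encodes a subunit of the enzyme that writes N6-methyladenosine on RNA. Libraries are named here by group and replicate number. Whether each library is a different animal is not stated in the labels. A p-value given here therefore reflects the spread of these 4 libraries, and that spread may be technical.

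Profilaggrin, the product of Flg, is a long chain of near-identical filaggrin repeats that is stored in the keratohyalin granules of the granular layer. When granular cells turn into cornified cells, the chain is dephosphorylated and cut into single filaggrin units, which bundle keratin filaments and are later broken down into amino acids that hold water in the cornified layer. Flg2, Hrnr and Rptn encode related proteins with an S100 domain at the start followed by repeats, and they lie beside Flg in the epidermal differentiation complex. Asprv1 encodes the retroviral-like protease SASPase, Casp14 a caspase of the cornifying cell and Blmh a bleomycin hydrolase, all of which act on profilaggrin or its fragments, and Padi1 encodes a deiminase that turns arginine into citrulline.

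The values were taken as FPKM, fragments per kilobase of transcript, scaled to the total of the library. The depth implied by the low values lay between 16900000 and 25700000 reads or fragments per library after rounding. Mettl14, the targeted gene, measured 7.00 and 6.40 FPKM in controls 1 and 2, against 5.89 and 3.79 in cKO 1 and 2, a log2 difference of -0.42 ± 0.26 (SE; limma, adjusted p = 0.959). Both cKO libraries lay below both controls, as did 16.6% of all genes, and the labels do not give the deleted part of the gene. Markers of the labelled cell type were abundant: Krt14 measured between 1435 and 2549.5 FPKM over the 4 libraries and Krt10, a keratin of the layers above the basal one, between 5382.2 and 15341.6. Krt1, the usual partner of Krt10, was listed at 0 in every library, and a 0 in this table can therefore not be read as absence. Single libraries differed more between numbers than between genotypes: the median absolute log2 difference over all genes was 0.27 between the controls and 0.35 between the cKO libraries, against 0.21 between genotypes in number 1 and 0.25 in number 2. For this reason each member is given within each number as well as pooled.

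The 4 structural genes sit together on mouse chromosome 3 and are read in the same direction. On build GRCm38, with GENCODE M21 models, Flg2 spans 93197278 to 93221391, Flg 93273523 to 93293686, Hrnr 93319749 to 93333570 and Rptn 93393699 to 93399442, so that all 4 lie within 202.2 kb on the plus strand. The processing genes lie elsewhere: Casp14 on chromosome 10 (78711991 to 78718294, minus strand), Asprv1 on chromosome 6 (86628164 to 86629710, plus strand, 1 exon), Blmh on chromosome 11 (76924809 to 76987379, plus strand) and Padi1 on chromosome 4 (140812983 to 140845778, minus strand).

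A read that lies within a stretch shared by several filaggrin repeats cannot be assigned to 1 of them by its sequence. To show how alike the repeats are, the most variable stretch without gaps is given for 6 transcript models from the repeat region. They are between 756 and 777 nt long and are called the repeat models here. The sequences come from the GENCODE M21 transcripts (GRCm38, plus strand, 5′ to 3′), and capitals mark bases that differ from the most common base in that column.
Flg-202, chr3:93281446-93281505: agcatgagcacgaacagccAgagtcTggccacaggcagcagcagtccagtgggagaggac
Flg-204, chr3:93282935-93282994: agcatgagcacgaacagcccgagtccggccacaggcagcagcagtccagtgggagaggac
Flg-203, chr3:93284432-93284491: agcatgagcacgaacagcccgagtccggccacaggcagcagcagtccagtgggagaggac
Flg-206, chr3:93286698-93286757: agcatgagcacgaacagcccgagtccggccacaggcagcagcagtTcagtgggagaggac
Flg-205, chr3:93288213-93288272: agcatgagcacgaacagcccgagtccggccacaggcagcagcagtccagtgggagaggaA
Flg-207, chr3:93290487-93290546: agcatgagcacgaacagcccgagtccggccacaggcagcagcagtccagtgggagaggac
Over these 60 bases 4 columns differ, and 3 of the 6 models are identical. Over all aligned bases, with gaps left out, the 6 models were between 98.4% and 99.5% identical in 15 pairs. Of 783 alignment columns, 30 held a gap. In the full-length model Flg-209 (14497 nt), 71.3% of windows of 100 bases occur more than once in the transcript itself. The same share was 63.8% in Hrnr-201 and 17.7% and 55.5% in the models Flg2-201 and Flg2-202, while it was 0.0% in Rptn-201, Casp14-201, Asprv1-201, Blmh-201 and Padi1-201.

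The 120 bases before the RefSeq start of the 4 structural genes are shown because these genes are neighbours with related products. They were taken from the RefSeq promoter table (GRCm38.p6), which held 1 entry for each of the 8 genes, and read 5′ to 3′ on the plus strand. Capitals mark matches to TGANTCA or TATAAA, searched on both strands over the 250 bases upstream of the RefSeq start. That start is the same base as the GENCODE M21 start given above for Hrnr and Rptn, but lies 23 bases inside the GENCODE gene for Flg and 5 bases before it for Flg2.
Flg2, chr3:93197153-93197272: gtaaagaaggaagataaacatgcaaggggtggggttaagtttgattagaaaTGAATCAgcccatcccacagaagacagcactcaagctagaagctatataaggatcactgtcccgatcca
Flg, chr3:93273426-93273545: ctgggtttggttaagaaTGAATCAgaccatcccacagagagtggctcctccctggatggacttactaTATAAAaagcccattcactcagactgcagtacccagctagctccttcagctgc
Hrnr, chr3:93319629-93319748: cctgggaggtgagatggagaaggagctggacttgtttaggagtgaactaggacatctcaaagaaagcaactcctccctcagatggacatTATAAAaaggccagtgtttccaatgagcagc
Rptn, chr3:93393579-93393698: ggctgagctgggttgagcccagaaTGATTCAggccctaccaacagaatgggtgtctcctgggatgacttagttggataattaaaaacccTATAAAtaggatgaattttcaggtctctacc
TGANTCA reads the same on both strands. Counted from the RefSeq start, it occurred in Flg (103 to 97 bases upstream), Flg2 (69 to 63) and Rptn (96 to 90), and 6.7% of 32851 promoters of the table hold it. The forms found were TGAATCA and TGATTCA, not the TGAGTCA or TGACTCA of the classical AP-1 site. TATAAA, the core of the TATA box, occurred in Flg (53 to 48), Hrnr (31 to 26) and Rptn (31 to 26), against 12.4% of promoters. Counted from the GENCODE start, the match in Flg lies 30 to 25 bases upstream, close to its place in Hrnr and Rptn. Only these exact letters were searched, so the similar letters tatataa in the Flg2 sequence above are not marked. The lack of a match in Flg2 is therefore not read as lack of a TATA box. Both patterns together were found in Flg and Rptn and in 1.2% of promoters. Neither pattern was found in the same window of Casp14, Asprv1, Blmh or Padi1. For Blmh the RefSeq start lies 20847 bases inside the GENCODE gene, and the bases before the GENCODE start were not searched. These matches are letters in a sequence, and no binding was measured.

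The 4 structural genes were lower and Asprv1 was higher in cKO within both library numbers. The estimates of Blmh and Casp14 lay near 0, and no difference passed the test. The labels do not say that libraries of the same number share a litter or day. Across numbers, cKO 1 lay above control 2 for Flg, Hrnr and Rptn. On the log2 scale the structural genes were estimated between -0.43 and -0.35 and Asprv1 at 0.51. By limma's test with Benjamini-Hochberg adjustment, 0 of the 8 members and 0% of all 13817 genes passed an adjusted p of 0.05. The smallest adjusted p of any gene was 0.456. Genes passing numbered 14 without control 1, 37 without control 2, 71 without cKO 1 and 9 without cKO 2, again with 0 members. Without adjustment, 686 genes (4.96%) had a p under 0.05, and again 0 members. An exact 2-sided permutation test of 2 against 2 libraries cannot go below p = 0.333. Asprv1 alone had both cKO libraries above both controls, which 16.2% of all genes had, and Flg2 and Casp14 had both below, as did 16.6%. Flg, Flg2, Hrnr, Rptn and Casp14 were lower in cKO within both numbers, 5 of 8 against 37.6% of genes, and Asprv1 and Padi1 were higher within both, 2 of 8 against 31.8%. The median log2 difference was -0.21 over the 8 members and -0.03 over all genes tested.

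Flg had the highest summed level of the 8 genes and was lower in each cKO library than in the control of the same number, but the 2 genotypes overlapped. It measured 4127.6 and 2454.5 FPKM in controls 1 and 2, against 3187.2 and 1821.9 in cKO 1 and 2, the 11th highest mean of all genes. That sum adds rows for separate parts of 1 gene, so the level and the rank depend on the summing. Its largest row measured between 787.35 and 2367.94 FPKM. The row Flg-201 measured between 369.55 and 515.77, below Asprv1 in every library. By the summed level, the order of the libraries was control 1, cKO 1, control 2, cKO 2, so the library number separated them and the genotype did not. Flg was 1.68 times as high in control 1 as in control 2 and 1.75 times as high in cKO 1 as in cKO 2, and only 8.1% of the genes tested differed more between the 2 controls. Within a number, cKO stood at 77.2% and 74.2% of control, or -0.37 and -0.43 on the log2(FPKM + 1) scale. The pooled log2 difference was -0.40 ± 0.66 (SE; 95% interval -2.03 to 1.23; limma, adjusted p = 0.961), and 0.002 when cKO 2 was left out. In bulk RNA, fewer granular cells and less Flg RNA in each granular cell cannot be told apart.

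**Figure D1:**
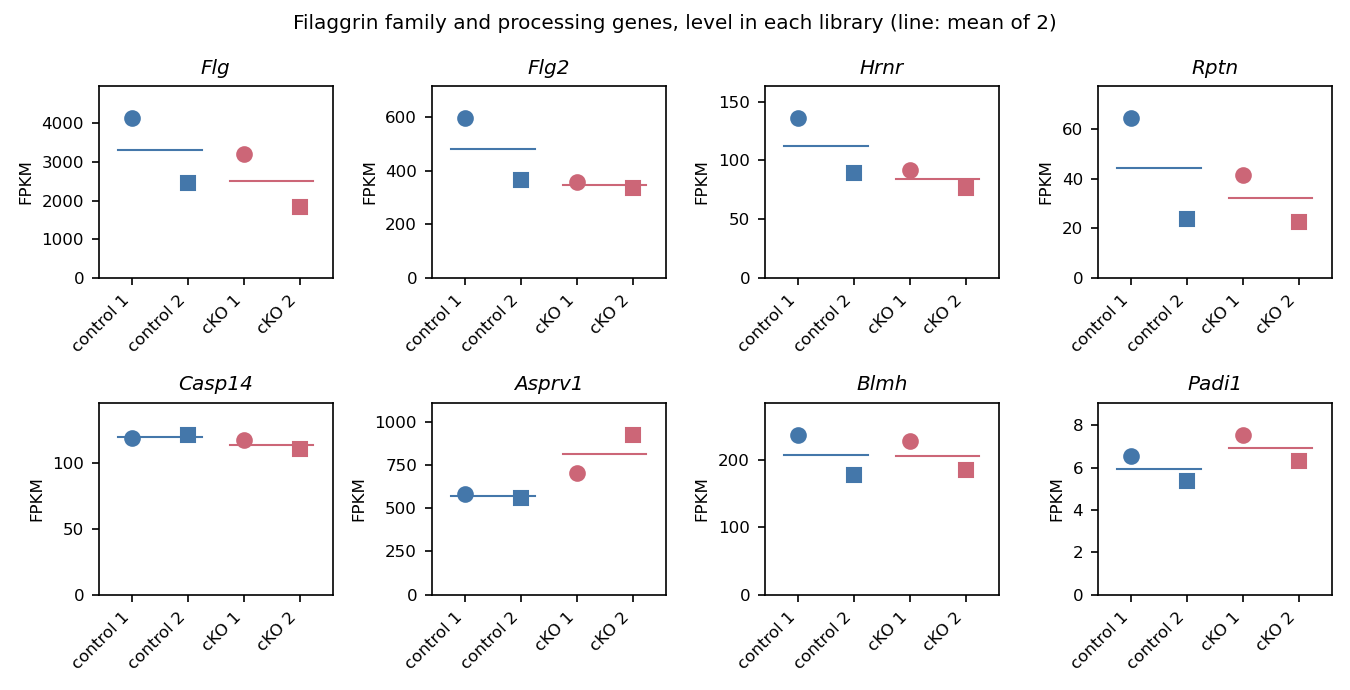
Level of each of the 8 genes in FPKM (vertical axes, each starting at 0) in the 2 control libraries (blue) and the 2 cKO libraries (red). Circles are libraries numbered 1, squares are libraries numbered 2, and lines are the means of 2. Asprv1 lies higher in both cKO libraries than in both controls, Flg2 and Casp14 lie lower, and the other 5 genes overlap.

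The deposited Flg value is a sum over 10 rows, and those rows did not all differ between genotypes by the same amount. One row, ENSMUST00000148311, held 49.8% of the sum. It has no model in GENCODE M21 and measured 2367.94 and 1051.1 FPKM in the controls, against 1565.66 and 787.35 in the cKO libraries, which is 66.1% and 74.9% of control within numbers 1 and 2. The 6 repeat models together measured 1147 and 946 FPKM in the controls, against 1056 and 619 in the cKO libraries (92.1% and 65.4%). Flg-201 covers the last stretch of the gene (93292199 to 93293686). It measured 515.77 and 385.05 FPKM in the controls, against 502.02 and 369.55 in the cKO libraries, or -0.04 (number 1) and -0.06 (number 2) on the log2 scale. Flg-201 was therefore the Flg row above 0 whose levels differed least between genotypes within both numbers, while it still differed between numbers.

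Levels of the Flg models followed how much of each model is unique. Of windows of 100 bases, 0.0% of those in Flg-203 occur once in Flg-209, against 1.0% in Flg-206, 5.4% in Flg-207, 28.2% in Flg-205, 45.1% in Flg-202, 55.1% in Flg-204 and 67.4% in Flg-201. The order of these 7 models by level was the same as by this share in 4 of 4 libraries. Flg-203 was listed at 0 in every library. Flg-207, the nearest to it in sequence with 99.5% of aligned bases identical, measured between 31.86 and 55.74 FPKM. Flg-206 and Flg-202, both at 98.8%, measured between 5.06 and 10.07 and between 209.68 and 393.98 FPKM. Flg-208, which covers the start of the gene, was also listed at 0 in every library although 94.7% of its windows occur once. Neither 0 is read here as absence of that stretch from the RNA, and how reads with several matches were counted is not given in the sources used here. A level summed over these rows therefore depends on which models are counted: the pooled log2 difference of Flg was -0.40 over all rows, -0.26 over those with a GENCODE M21 model, -0.21 with rows weighted by length and -0.51 for the most abundant row alone.

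**Figure D2:**
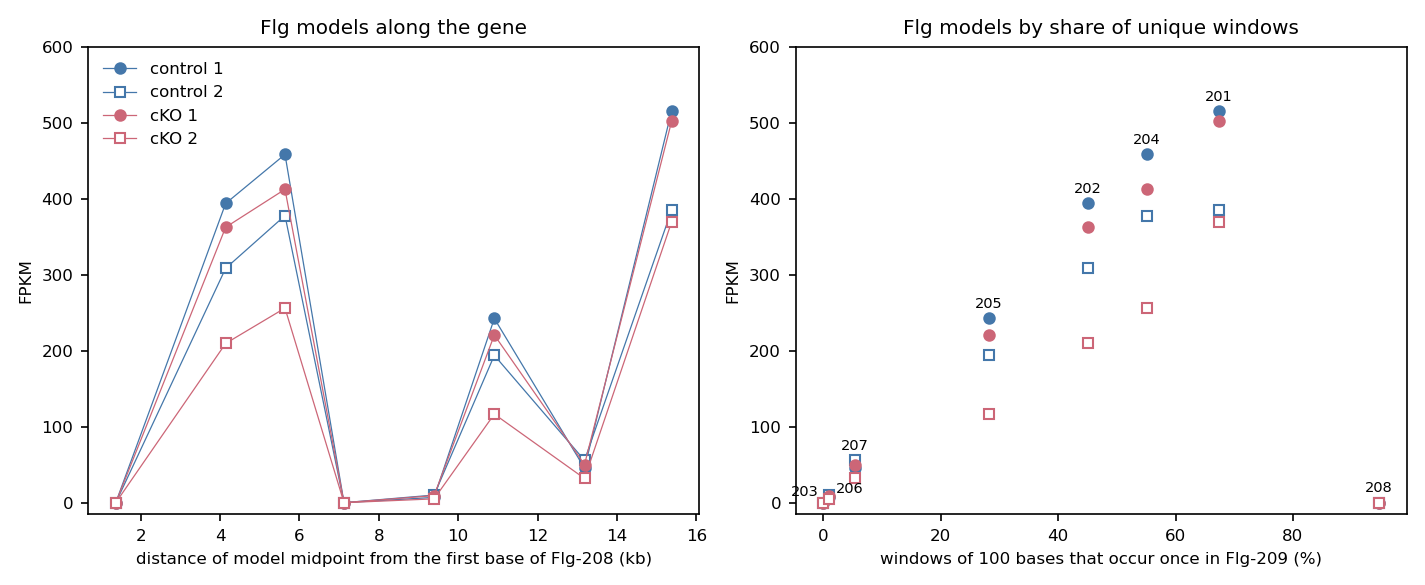
FPKM of 8 Flg models in each library, against the distance of the model's midpoint from the first base of Flg-208 in kb (left) and against the percentage of its windows of 100 bases that occur once in Flg-209 (right). Blue is control and red cKO, circles are libraries numbered 1 and open squares libraries numbered 2. Levels increase with the unique share from Flg-203 at 0 to Flg-201 between 369.55 and 515.77 FPKM, while Flg-208 is at 0 with 94.7% unique windows.

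Flg2 was lower in both cKO libraries than in both controls, and the margin to control 2 was small. It measured 597.22 and 367.65 FPKM in controls 1 and 2, against 357.6 and 337.29 in cKO 1 and 2. Control 1 stood far above the other 3 libraries, which lay close together. Within number 1 cKO reached 59.9% of control and within number 2 it reached 91.7%, and the pooled log2 difference was -0.43 ± 0.36 (SE; 95% interval -1.33 to 0.46; limma, adjusted p = 0.959). Of its 3 rows, Flg2-202 measured 296.5 and 156.39 FPKM in the controls, against 158.27 and 127.33 in the cKO libraries. It held 44.5% of the sum and is annotated as a processed transcript, not as protein-coding. The protein-coding Flg2-201, with 33.2% of the sum, measured 198.41 and 120.4 against 138.17 and 93.96. The third row, ENSMUST00000194443, held 22.3% and has no model in GENCODE M21. It went the other way within number 2, with 90.86 FPKM in control and 116 in cKO.

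Hrnr, which encodes hornerin, a repeat protein of the cornified envelope, had a profile close to that of Flg2. It measured 136.01 and 89.02 FPKM in the controls, against 91.42 and 76.63 in the cKO libraries. Within numbers 1 and 2 the cKO level was 67.2% and 86.1% of control, and the groups overlapped because cKO 1 was above control 2. The log2 difference was -0.39 ± 0.29 (SE; 95% interval -1.11 to 0.32; limma, adjusted p = 0.959). Over the 4 libraries, the root mean square distance between the centred log2 profiles of Hrnr and Flg2 was 0.07, the smallest of any pair of the 8 genes, against 0.20 between Hrnr and Flg. All of the Hrnr level was listed under Hrnr-201, and Hrnr-202, which has the same ends, was listed at 0 in every library.

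Rptn, which encodes repetin, was the lowest of the structural genes and the one that differed most between libraries of 1 genotype. It measured 64.4 and 23.9 FPKM in the controls, against 41.58 and 22.69 in the cKO libraries. Both libraries numbered 1 were higher than both numbered 2, by 2.69 times in control and 1.83 times in cKO, and only 0.9% of genes tested differed more between the 2 controls. Within number 1 the cKO level was 64.6% of control and within number 2 it was 94.9%. The log2 difference was -0.35 ± 0.52 (SE; 95% interval -1.62 to 0.93; limma, adjusted p = 0.959). Its direction rested on single libraries: it was 0.351 without control 1 and 0.077 without cKO 2.

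Casp14 hardly varied over the 4 libraries. It measured 118.77 and 121.8 FPKM in the controls, against 117.37 and 110.55 in the cKO libraries. Both cKO libraries lay below both controls, cKO 1 only just. The log2 difference was -0.08 ± 0.22 (SE; 95% interval -0.63 to 0.48; limma, adjusted p = 0.976). Set against the summed Flg rows, there were 2.88 and 4.96 Casp14 FPKM per 100 of Flg in controls 1 and 2, against 3.68 and 6.07 in cKO 1 and 2. This ratio depends on which Flg rows are summed. Each cKO library had a higher ratio than the control of its number, and the groups overlapped.

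Asprv1 was the 1 member higher in both cKO libraries than in both controls. It measured 583.66 and 558.43 FPKM in the controls, against 707.71 and 928.67 in the cKO libraries, which is 121.3% and 166.3% of the control of the same number. The controls differed by little, and the cKO libraries differed from each other by more than cKO 1 differed from the controls. The log2 difference was 0.51 ± 0.37 (SE; 95% interval -0.40 to 1.41; limma, adjusted p = 0.959), the largest in size of the 8 genes, and it did not pass the test. Beside the gene for its substrate, Asprv1 measured 14.1 and 22.8 FPKM per 100 of the summed Flg rows in the controls, against 22.2 and 51.0 in the cKO libraries. Per 100 of Casp14 it measured 491 and 458 in the controls, against 603 and 840 in the cKO libraries. The groups of this ratio could not overlap, since both cKO libraries lay above both controls for Asprv1 and below both for Casp14. The ratio is therefore not a further result. Asprv1 has 1 exon and 1 row in the table, with no repeated window, so its level does not depend on how reads were divided among models.

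Blmh, whose product breaks filaggrin fragments down to amino acids, had a summed level that was nearly the same in both genotypes. It measured 237.93 and 177.85 FPKM in the controls, against 227.88 and 185.21 in the cKO libraries, with a log2 difference of -0.00 ± 0.29 (SE; 95% interval -0.72 to 0.72; limma, adjusted p = 1.00). Its sign was not stable, with 0.036 under median-ratio scaling. Its 9 rows did not move together. The full-length protein-coding model Blmh-201 measured 144 and 139 FPKM in the controls, against 166 and 153 in the cKO libraries. That is 115% and 110% of the control of the same number. Both cKO libraries lay above both controls, as for 16.2% of all genes by summed level. The share over single rows was not computed. The other 8 models, which have fewer exons, summed to 93.9 and 39.2 FPKM in the controls, against 61.8 and 31.8 in the cKO libraries. They held 39.5% and 22.0% of Blmh in controls 1 and 2 and 27.1% and 17.2% in cKO 1 and 2.

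Padi1 was the least abundant of the 8 genes and was slightly higher in each cKO library than in the control of its number. It measured 6.54 and 5.36 FPKM in the controls, against 7.57 and 6.31 in the cKO libraries, from about 426, 471, 480 and 609 reads. The log2 difference was 0.19 ± 0.23 (SE; 95% interval -0.36 to 0.75; limma, adjusted p = 0.959), with 0.18 within number 1 and 0.20 within number 2. The 2 groups overlapped, since control 1 was above cKO 2. Of its windows of 100 bases, 27.6% also occur in Gm13032, a transcript on the opposite strand that measured between 0.15 and 0.34 FPKM.

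**Figure D3:**
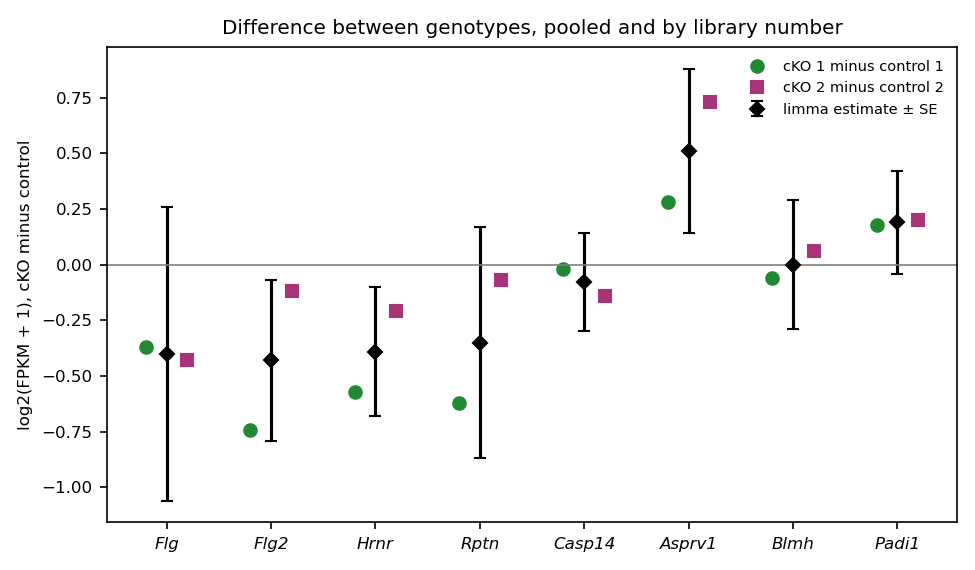
Difference in log2(FPKM + 1), cKO minus control, for each of the 8 genes. Black diamonds are limma's estimates with bars of 1 SE, green circles are cKO 1 minus control 1, and purple squares are cKO 2 minus control 2. The bars of Flg, Rptn, Casp14, Blmh and Padi1 cross 0, and those of Flg2, Hrnr and Asprv1 do not, though the 95% interval of every gene holds 0.

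The split between library numbers was as wide as the one between genotypes for several members. Flg, Hrnr, Rptn, Blmh and Padi1 were higher in both libraries numbered 1 than in both numbered 2, 5 of 8 against 24.6% of all genes. The median difference of number 2 minus number 1 over the members was -0.51 in control and -0.24 in cKO, against 0.07 and 0.08 over all genes. Genes of other skin layers and of hair also differed by number. All 6 basal keratinocyte markers were higher in number 2 in both genotypes, with medians of 0.54 and 0.78, and so were all 8 hair follicle and inner root sheath markers, with 1.09 and 1.42. Of all genes tested, 46.6% were. Of 11 partners of keratohyalin and the cornified layer, 8 were lower in number 2 in both genotypes (medians -0.56 and -0.61), as were 6 of the 8 members and 33.0% of all genes. The part of these differences in the values of the members was not tested.

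**Figure D4:**
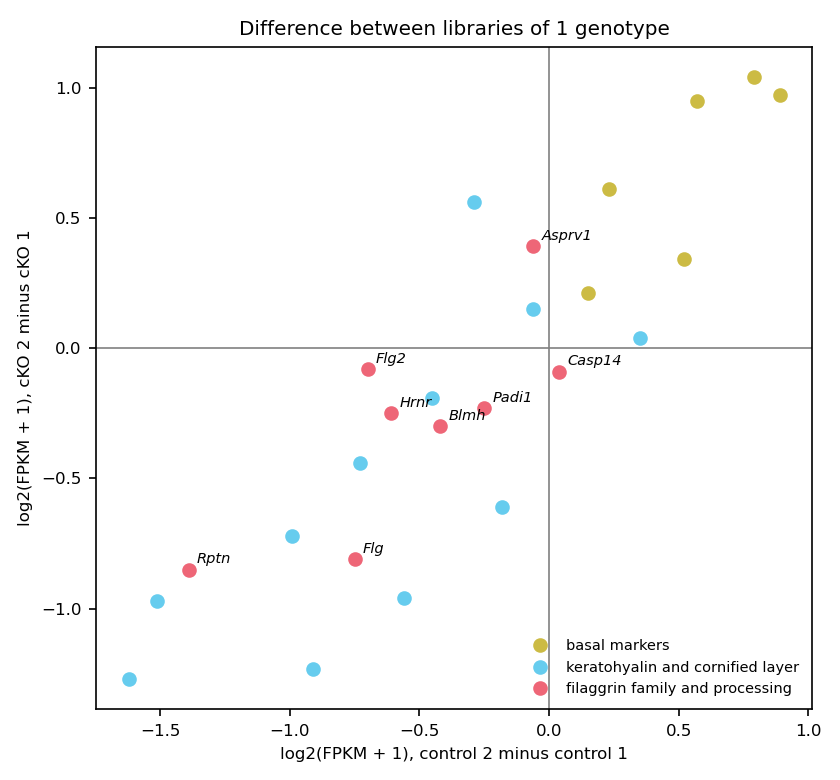
Difference between the 2 libraries of 1 genotype, number 2 minus number 1, in log2(FPKM + 1), for control (horizontal axis) and cKO (vertical axis). Red points are the 8 members, light blue points 11 genes of keratohyalin and the cornified layer, and yellow points 6 basal markers. The basal markers lie above 0 on both axes, and 6 of the 8 members lie below 0 on both, as 33.0% of all genes do.

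The order of the 8 genes by summed level was the same in both genotypes: Flg, Asprv1, Flg2, Blmh, Casp14, Hrnr, Rptn and Padi1. The first place of Flg depends on which of its rows are summed. So does the place of Flg2 above Blmh: its protein-coding row Flg2-201 measured between 93.96 and 198.41 FPKM, below summed Blmh in every library. In control the means ± SD (n = 2 libraries) were 3291 ± 1183 FPKM for Flg, 571 ± 17.8 for Asprv1 and 482 ± 162 for Flg2. In cKO they were 2505 ± 965, 818 ± 156 and 347 ± 14.4. Asprv1 and Flg2 overlapped in control and did not overlap in cKO. Blmh followed with 208 ± 42.5 and 207 ± 30.2 FPKM in control and cKO, and Casp14 with 120 ± 2.14 and 114 ± 4.82. Hrnr measured 113 ± 33.2 and 84.0 ± 10.5, so that it overlapped Casp14 in control and not in cKO. The lowest were Rptn, with 44.2 ± 28.6 and 32.1 ± 13.4, and Padi1, with 5.95 ± 0.834 and 6.94 ± 0.891. Whether the distance between neighbours in this order differed between genotypes was not tested.

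Other genes of the S100-fused family, which continue the cluster on chromosome 3, did not share the split of Flg between numbers. Tchh, which encodes trichohyalin of the inner root sheath, measured 15.9 and 59.79 FPKM in the controls, against 15.96 and 41.31 in the cKO libraries. Crnn, which encodes cornulin, measured 3.48 and 6.41 against 2.85 and 5.46. Both were higher in the libraries numbered 2, where Flg and Rptn were lower. Of Tchh, Crnn and Tchhl1, 0 passed the test, 2 were lower in cKO within both numbers, against 37.6% of all genes, and the median log2 difference was -0.26. Within the span of Flg on the same strand lies Rplp0-ps1, a processed pseudogene, with 29.43 and 48.45 FPKM in the controls, against 24.55 and 45.61 in the cKO libraries.

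Of 11 other proteases that are known or proposed to act on profilaggrin or filaggrin, 9 were tested, 0 passed, and 6 were higher in cKO within both numbers, with a median log2 difference of 0.13. Over all genes, 31.8% were higher within both numbers. St14, which encodes matriptase, measured 23.91 and 26.62 FPKM in the controls, against 27.13 and 43.38 in the cKO libraries (0.43 ± 0.28), and Ctsh, a lysosomal cathepsin, 36.53 and 42.25 against 44.78 and 56.3 (0.35 ± 0.23). Prss8, which encodes the membrane protease prostasin, measured 17.99 and 17.83 against 20.2 and 24.36. Capn2, a calpain, measured 19.74 and 20.52 against 22.76 and 26.66. These 4 of the 9 had both cKO libraries above both controls, against 16.2% of all genes, and the other 5 overlapped. The kallikreins of the cornified layer followed the library number instead: Klk7 measured 399.07 and 187.36 FPKM in the controls, against 398.47 and 217.51 in the cKO libraries, and Klk5 118.74 and 37.76 against 101.46 and 43.7. Elane was listed at 0 in every library. Among 6 protease inhibitors of the granular layer 0 passed, 2 were higher and 3 lower within both numbers, with a median of -0.10. These counts stand against 31.8% and 37.6% of all genes. Spink5, whose product LEKTI inhibits the kallikreins, measured 412.57 and 93.27 FPKM in the controls, against 325.19 and 115.58 in the cKO libraries. Spint1, an inhibitor of matriptase, was estimated at 0.34 ± 0.21 and was the 1 inhibitor of the 6 with both cKO libraries above both controls.

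Of the 4 other peptidylarginine deiminases 3 were tested, 0 passed, and the median log2 difference was 0.33. Padi3, a deiminase of the hair follicle and upper epidermis, measured 2.76 and 5.3 FPKM in the controls, against 3.83 and 6.74 in the cKO libraries, and Padi4 2.23 and 7.43 against 5.25 and 6.26. Padi2 was lower in cKO, with 1.39 and 1.48 against 0.74 and 1.16, a log2 difference of -0.33, at levels near the filter of 1 FPKM. It was the 1 of the 3 whose groups did not overlap, and 16.6% of all genes had both cKO libraries below both controls. Padi1 was higher in the libraries numbered 1, and Padi3 and Padi4 in those numbered 2. Of 4 genes that break down histidine, an amino acid abundant in filaggrin, 1 passed the filter: Hal, the histidine ammonia-lyase that makes urocanic acid, measured 76.53 and 51.36 FPKM in the controls, against 67.27 and 54.91 in the cKO libraries (-0.04 ± 0.28).

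Among 12 partners of keratohyalin and the cornified layer 11 were tested, 0 passed, 6 were higher in cKO within both numbers and 0 lower, with a median of 0.19. Over all genes, 31.8% were higher and 37.6% lower within both numbers. Tgm3, a transglutaminase that crosslinks envelope proteins, had 49.89 and 47.89 FPKM in the controls, against 111.52 and 123.49 in the cKO libraries (1.25 ± 0.21; limma, adjusted p = 0.959). Krt2, a keratin of the upper epidermis, was low in all libraries, with 0.86 and 0.52 FPKM in the controls, against 2.42 and 4.03 in the cKO libraries (1.30 ± 0.30). Krt10 and Dsc1, a desmosomal cadherin of the upper layers, followed the library number as Flg did: Dsc1 measured 607.02 and 196.3 FPKM in the controls, against 611.45 and 253.69 in the cKO libraries. Unlike Flg, Dsc1 was not lower in cKO within either number. Of 10 transcription factors of the granular layer 0 passed, 7 were higher and 2 lower within both numbers, against 31.8% and 37.6% of all genes, and the median was 0.34. Zfp750 measured 77.13 and 78.92 FPKM in the controls, against 122.81 and 113.59 in the cKO libraries (0.59 ± 0.22), Ovol1 37.75 and 33.96 against 53.41 and 55.02 (0.58 ± 0.20), and Klf4 109.21 and 136 against 184.51 and 172.02. All 3 are regulators of late keratinocyte differentiation. Ahr and Arnt, the partners of the aryl hydrocarbon receptor dimer, went the other way, with 25.83 and 22.99 against 21.17 and 16.32 FPKM for Ahr and 15.83 and 16.21 against 13.34 and 11.21 for Arnt. Both cKO libraries lay above both controls for 5 of the 10 and below for 2, against 16.2% and 16.6% of all genes.

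**Figure D5:**
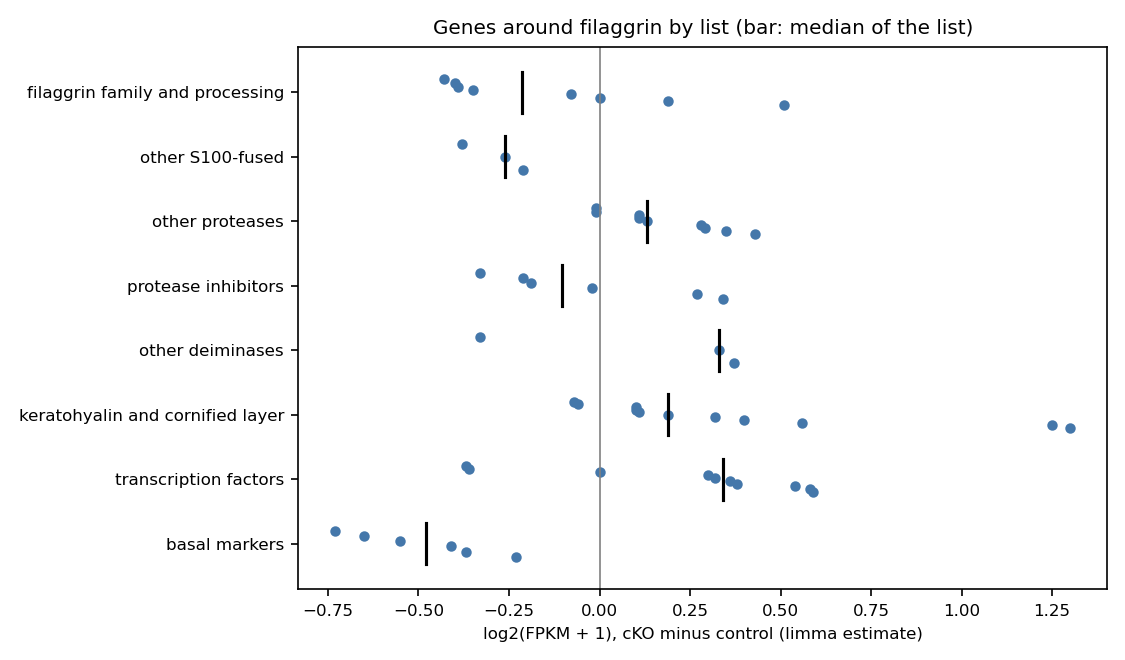
limma's estimate of the log2(FPKM + 1) difference, cKO minus control, for each tested gene of 8 lists (points) with the list's median (bar). The medians are -0.21 for the 8 members, 0.34 for the transcription factors of the granular layer and -0.48 for the basal markers, and 0 of the genes shown passed the adjusted test.

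Markers of other cells that the preparation could hold also differed in level. All 6 basal markers were lower in cKO within both numbers (median -0.48), as were 37.6% of all genes. Their summed level was 3736 and 4841 FPKM in the controls, against 2377 and 3751 in the cKO libraries. The 6 leukocyte markers were lower within both numbers as well (median -0.76), with sums of 280 and 338 FPKM in the controls, against 158 and 241 in the cKO libraries, and 5 of the 6 had both cKO libraries below both controls, against 16.6% of all genes. Fibroblast markers summed to 116 and 114 FPKM against 84.6 and 92.0. Within both numbers 3 of 6 were lower and 1 higher, against 37.6% and 31.8% of all genes. Dcn alone measured 55.69 and 68.23 FPKM against 33.96 and 40.31, while Col3a1 was estimated at a log2 difference of 0.03. Melanocyte markers summed to 516 and 445 FPKM against 397 and 417, and 5 of 6 were lower within both numbers. Hair follicle markers summed to 199 and 483 FPKM against 230 and 657. Of the 8 hair follicle markers, Tchh, Padi3 and Gata3 are also in lists above. None of the markers of these 5 lists was listed at 0 in all libraries. Endothelial markers summed to between 0.57 and 1.72 FPKM in all 4 libraries, and none passed the filter. Of 5 oral and oesophageal markers, 4 were in the table, with sums of 7.34 and 14 FPKM against 16.5 and 13.9 and a median log2 difference of 0.72 over the 3 tested. Krt4, an oral keratin, measured 2.21 and 3.73 against 6.08 and 4.83. Krt13 measured 1.65 and 3.85 against 7.55 and 3.62, so its groups overlapped. Of the 3 tested, 1 was higher and 1, Crnn, was lower within both numbers. The part of these cells in the values of the members was not tested.

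The genes whose profile over the 4 libraries was most like that of Flg were found by the root mean square distance between centred log2(FPKM + 1) values, among 7117 genes with a mean of at least 10 FPKM. They were RP23-326O2.2 (0.033), Mki67 (0.035), Kdm7a (0.041), Gm16907 (0.043) and Hook3 (0.047). Mki67, a gene of dividing cells, measured 61.39 and 36.5 FPKM in the controls, against 46.5 and 27.99 in the cKO libraries. Each of these genes was nearer to Flg than Hrnr was, the nearest member at 0.20. The nearest to Casp14 were Nfyb (0.006), Ide (0.008), Vps4b (0.009), Tmem50a (0.010) and Tars (0.014), all of which hardly varied. These distances rest on 4 libraries and describe a profile only.

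Mettl14 acts in the enzyme that methylates adenosine in short motifs such as GGAC, and the members differ widely in how many of these letters their transcripts hold. On the transcript strand, Hrnr-201 holds 12.1 GGAC per kb, more than 99.7% of 21877 genes, and Flg2-202 11.2 and Flg2-201 8.8. Flg-209 holds 6.7, Rptn-201 6.0, Blmh-201 5.6, Padi1-201 5.3 and Asprv1-201 5.2, against a median of 3.9 over those genes. Casp14-201 holds 1.3, and 4.9% of genes hold fewer. These are counts of letters in GENCODE M21 transcripts, and methylation was not measured.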

How the data were processed

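RNA sequencing values of 4 libraries were used, 2 control and 2 cKO. The authors deposited a table of 110295 transcripts whose header names no unit. Its values were read as FPKM, as made by the authors, because the deposited value times transcript length, in kilobases, summed to between 1015550 and 1021998 per library. RPKM would look the same. Low values were whole multiples of 1 read, within 0.2 reads, in 95.3% to 95.9% of cases, which gave the depths. The submitters' processing notes list fastp, HISAT2, HTSeq and GRCm38, with no role or version. For the annotation release and the use of strand, nothing is stated in these sources, so reads of overlapping and antisense genes cannot be told apart. Columns named WT in the table were matched to the control libraries by group and number. In 162 rows the symbol read as a date, and all were resolved by transcript ID. GENCODE M21 held 98.04% of the transcripts.

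FPKM were summed per symbol. A gene was tested if it reached 1 FPKM in at least 2 libraries. The test was limma's (moderated, with a mean-variance trend), run on log2(FPKM + 1) with genotype as the only term, 2 residual degrees of freedom, Benjamini-Hochberg adjustment over all genes tested and a threshold of 0.05. The added 1 makes the fold changes of low genes too small. On simulated data with 200 of 13817 genes changed, the test called 0% of them at 2-fold, 52.5% at 4-fold and 93% at 8-fold, with 0, 4 and 16 unchanged genes called. The repeat models were aligned with mafft. Named genes are all members, Mettl14, up to 4 genes per list (the 2 highest and the 2 with the largest difference), genes listed at 0, and the 5 genes most like Flg and Casp14; Prss8, Capn2, Padi2, Ahr and Arnt were named after their values were seen. The members and lists were chosen with earlier results of these data known. Alternatives were another pseudocount, other filters and scalings, no trend, the replicate number as a block, other ways to combine transcripts and leaving out each library. Software was mafft 7.526, R 4.3.3 with limma 3.58.1, and Python 3.11.15 with matplotlib 3.10.9, scipy 1.17.1, pandas 2.3.3 and numpy 2.4.6.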

Additional observations from a re-analysis of the deposited data

How the results depend on the processing

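Over 14 alternatives, 0 members passed the adjusted test in any, and 8 of 112 member differences changed sign. With the replicate block, 900 genes passed where 0 did without it, still with 0 members: the smallest adjusted p was 0.0749 for Asprv1, followed by 0.0923 for Hrnr, 0.129 for Flg2, 0.162 for Flg and 0.18 for Rptn. Deviations of same-numbered libraries correlated at 0.72 across genes, a hint from the data with 2 numbers only, since the labels do not say that a number marks a shared litter or day.

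Leaving out each library in turn gave between 9 and 71 genes, in fits that take the spread of the group with 1 library from the other group. In these fits the log2 difference of Flg lay between -0.805 and 0.002 (0.002 without cKO 2), that of Rptn between -1.042 and 0.351 (0.351 without control 1, 0.077 without cKO 2) and that of Blmh between -0.211 and 0.207 (0.207 without control 1, 0.147 without cKO 2). The other 5 members kept their sign in these fits: Flg2 -0.78 to -0.082, Hrnr -0.694 to -0.088, Casp14 -0.121 to -0.035, Asprv1 0.309 to 0.701 and Padi1 0.07 to 0.316. Blmh, at -0.002, also became 0.036 with median-ratio scaling, 0.174 with the most abundant transcript alone and 0.057 with transcripts weighted by length; the last was chosen after seeing the data, as was the restriction to GENCODE M21 transcripts. With these 2 choices Flg was -0.211 and -0.262, against -0.401 as reported. The cause of these changes was not tested. No scaling moved the median of all genes past 0.084 in size. At least 2318 reads per library stood behind every member but Padi1, and the number of libraries, 2 per group, limits the precision.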
